A study of Saccharomyces cerevisiae with 6 samples.

Results

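The cytosolic chaperonin CCT, also called TRiC, was followed through the transcripts of its 8 subunits, TCP1, CCT2, CCT3, CCT4, CCT5, CCT6, CCT7 and CCT8. The genes were taken by name and all 8 were found among the 7127 genes of the count table, through the systematic identifiers YDR212W, YIL142W, YJL014W, YDL143W, YJR064W, YDR188W, YJL111W and YJL008C. Polyadenylated RNA came from a haploid MATa strain of Saccharomyces cerevisiae (S288c background) grown in YPD. Both groups carried the same genotype. Its recombinase is Cre-EBD78, held with the LEU2 marker at leu2, and its target is the Shs1 gene tagged as Shs1-loxPmCherry:Cln2(3'UTR), followed by NatNT2, a second loxP site and GFP. The strain also held LacR-GFP:HIS3 at his3, TetR-mCherry, arrays of LacO at lys4 (marked with hphNT1) and of TetO at trp1 (marked with TRP1), and ade2. Cre fused to the estrogen-binding domain acts on loxP sites once beta-estradiol is present. Cells sampled at 0 min (mCh*, 3 libraries) were set against cells sampled at 180 min (mCh-, 3 libraries), beta-estradiol having been given at 1 µM, and the labels describe 3 independent experiments. The groups differ in the time since the hormone was added, and time in culture, exposure to the hormone and the state of the reporter allele cannot be told apart.

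CCT is a barrel of a pair of stacked rings, each built from the 8 related but distinct subunits, in which newly made proteins fold behind a lid that closes with ATP hydrolysis. All 8 subunit genes are essential in yeast. Actin and the tubulins are its best known clients, and WD40-repeat proteins such as the cell cycle regulators Cdc20 and Cdh1 are others. Prefoldin hands unfolded actin and tubulin chains to the chaperonin, and phosducin-like proteins bind CCT and modulate it. Unlike Hsp70 and Hsp90, CCT is not a classical heat shock protein in yeast.

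All 8 subunit transcripts fell. Their log2 fold changes at 180 min lay between -0.53 and -0.29, with a median of -0.43, so that each subunit stood at 69.0% to 81.8% of its level at 0 min. All 8 were called lower at an adjusted p below 0.05 (quasi-likelihood test in edgeR, Benjamini-Hochberg over 6220 genes). Among all genes tested 57.7% were called, 28.2% lower and 29.5% higher. The median over all genes tested was 0.02. These values are relative to the libraries' composition. With library sizes only, the median of all genes moved to 0.27 and the 8 subunits lay between -0.28 and -0.04. Of the subunits, 3 (CCT2, CCT4 and CCT5) were then called lower, against 15.6% of all genes tested. The median of the subunits minus that of all genes was -0.45 under both scalings. A change of scaling shifts all genes by nearly the same amount, so this difference could hardly move and is no check. In bulk RNA, fewer transcripts per cell and fewer cells that hold them cannot be told apart, and RNA per cell was not measured.

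The stretches before the genes are shown first. The genes were chosen by name and not by these sequences, but the motif GTGGCNA below was chosen after the sequences were seen. The 8 genes lie on chromosome IV (TCP1, CCT4 and CCT6), chromosome IX (CCT2) and chromosome X (CCT3, CCT5, CCT7 and CCT8), none beside another, each with 1 coding exon of 1584 to 1707 bases. Matches were counted by letters, on both strands, in the 300 bases before each start codon (RefSeq sequence of build R64). The motif TCA, then 6 free bases, then ACG, a core of the site recognised by the general regulatory factor Abf1, was found before 7 of the 8 subunit genes, all but TCP1, and before 15.0% of 5988 nuclear protein-coding genes. The matches are printed with 9 bases on each side, on the strand of the match and with the match in capitals:
CCT2, chrIX:83023-83052, - strand: gaagataaaTCATGACGGACGttgaaggct
CCT3, chrX:407401-407430, - strand: caccatgcgTCACGTTAAACGaaaaagttt
CCT4, chrIV:199826-199855, + strand: gtattactaTCACTTGCCACGgggaaactg
CCT5, chrX:555745-555774, - strand: tggcataaaTCACTTTACACGttctcgaga
CCT6, chrIV:836212-836241, + strand: ggccgtggaTCACTGTTTACGggagttttg
CCT7, chrX:207689-207718, - strand: aaatattaaTCATTATTCACGaaagttttc
CCT8, chrX:421790-421819, - strand: gtgtttttgTCATTATTAACGgtattcgaa
The CCT2 match, the farthest from its gene, ends 259 bases before the start codon and overlaps the first codons of the divergent gene SSL2. The others end 136 to 189 bases before it. The Abf1-type motif also stood before 13 of 29 ribosome assembly genes, 7 of 20 heat-inducible chaperone genes and 4 of 7 ribosome-bound chaperone genes. It was found before 2 of 2 mitochondrial chaperonin genes, 2 of 6 prefoldin genes, 1 of 7 client genes and 1 of 6 tubulin cofactor genes, and not before PLP2.

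A shorter motif, GTGGCNA, was chosen after the sequences were seen, so its count before these genes is a description and could not serve as a test. It lies within GGTGGCAAA, the element of proteasome genes recognised by the activator Rpn4. GTGGCNA was present before all 8 subunit genes and before 8.87% of the 5988 promoters, while the full GGTGGCAAA was present before CCT6 alone and before 1.2% of all promoters. The match nearest to each start codon is shown, in capitals:
TCP1, chrIV:887072-887101, + strand: ccttgtcctaaGTGGCAAagaactgaaaaa
CCT2, chrIX:83237-83266, + strand: gaggatgaaagGTGGCCAttaaataggcaa
CCT3, chrX:407441-407470, - strand: tcactttattgaGTGGCGAtttgctatttt
CCT4, chrIV:199859-199888, - strand: tagcctttcttgGTGGCGAaacgaaaaaaa
CCT5, chrX:555820-555849, + strand: tcttggtggatGTGGCAAatgaggtgtgcg
CCT6, chrIV:836236-836265, + strand: gttttgctttgGTGGCAAaattttcgctcg
CCT7, chrX:207710-207739, + strand: ttaatatttaaGTGGCGActttttcatcct
CCT8, chrX:421751-421780, - strand: cacctccgctaGTGGCAAaaaaaagtgaag
These ended 48 to 168 bases before the start codon, and CCT2, CCT3 and CCT4 each held 2 matches. The same motif stood before 2 of 6 prefoldin genes, 2 of 29 ribosome assembly genes and 1 of 20 heat-inducible chaperone genes.

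Motifs of other gene classes were counted in the same windows. GATGAG, the core of the PAC element of ribosome assembly genes, and AAAAATTTT, the RRPE element found with it, were both present before CCT5 and before no other subunit gene. They stood before 27 and 23 of the 29 ribosome assembly genes, and before 19.1% and 7.35% of all promoters. They are shown as the only matches of either motif in the family, with the match in capitals:
CCT5 GATGAG, chrX:555716-555745, - strand: aacagtagatgcGATGAGtatgataaatag
CCT5 AAAAATTTT, chrX:555772-555801, + strand: ccattgaatgAAAAATTTTgttaaggaaca
A heat shock element of 3 units, GAA, TTC and GAA with 2 free bases between units, was found before 0 of the 8 subunit genes, before both genes of the mitochondrial chaperonin, before 8 of 20 heat-inducible chaperone genes and before 0.868% of all promoters. AGGGG, the stress response element, stood before 1 subunit gene (CCT2) and 22.2% of all promoters. These counts, 0 or 1 of 8, are too few to set apart from the shares over all promoters. A match in these windows is a description of the letters, and binding was not measured.

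The subunits can be ordered by their place in the ring, since TCP1, CCT4, CCT2 and CCT5 form the side that binds ATP with high affinity and CCT7, CCT8, CCT6 and CCT3 the side with weak ATP binding. CCT5 had 326, 322 and 290 CPM (TMM-scaled counts per 1e6 counts) in replicates 1 to 3 at 0 min and 210, 208 and 230 CPM at 180 min. Every library at 180 min lay below every library at 0 min. Its log2 fold change was -0.53 ± 0.08 (SE), with a 95% confidence interval of -0.71 to -0.36 (edgeR, adjusted p = 4.98e-05).

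CCT2 had 248, 250 and 208 CPM at 0 min and 156, 164 and 173 CPM at 180 min. The groups did not overlap, and replicate 3 was the low library at 0 min. The log2 fold change was -0.52 ± 0.09 (SE; edgeR adjusted p = 0.000128). CCT4 had 302, 329 and 287 CPM at 0 min and 205, 226 and 225 CPM at 180 min, a log2 fold change of -0.48 ± 0.08 (SE). Again all libraries at 180 min were lower.

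TCP1, the alpha subunit after which the family was named, had 187, 200 and 187 CPM at 0 min and 146, 147 and 158 CPM at 180 min. It had the lowest mean of the 8 genes in both groups, and its groups did not overlap. Its log2 fold change was -0.35 ± 0.08 (SE), smaller in size than those of the other 3 subunits of the high-affinity side, a difference that was not tested.

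On the weak side, CCT3 had 255, 268 and 224 CPM at 0 min and 173, 189 and 186 CPM at 180 min. CCT6 had 262, 254 and 238 CPM at 0 min and 172, 204 and 189 CPM at 180 min. In both genes the groups were separate, with log2 fold changes of -0.45 ± 0.09 for CCT3 and -0.42 ± 0.08 for CCT6 (SE).

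CCT8 had 200.5, 215 and 186 CPM at 0 min and 149, 161 and 162 CPM at 180 min, a log2 fold change of -0.35 ± 0.08 (SE). CCT7 had 273, 288 and 276 CPM at 0 min and 222, 230.0 and 233 CPM at 180 min. CCT7 had the smallest fall of the family, at -0.29 ± 0.08 (SE; edgeR adjusted p = 0.00404), and still its groups did not overlap.

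**Figure D1:**
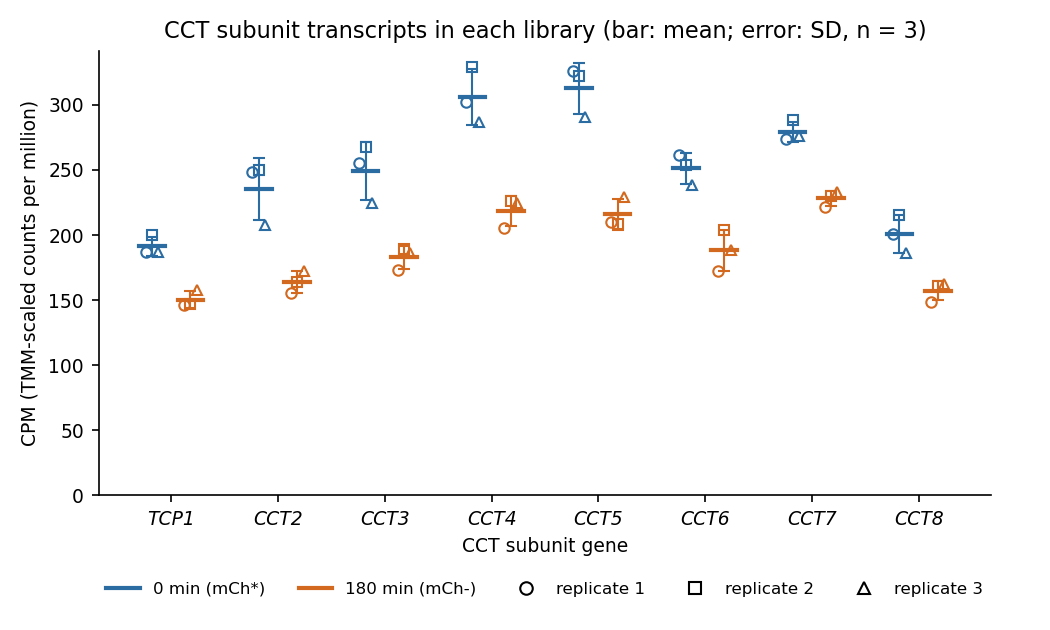
CPM (y axis) of each CCT subunit gene (x axis) in every library, with 0 min in blue and 180 min in orange, symbols for the replicate numbers, bars for means and error bars for SD (n = 3). For each gene the 3 libraries at 180 min lie below the 3 libraries at 0 min and TCP1 has the lowest means, 191 and 150.3 CPM. With library sizes only 3 of the 8 falls are called, against 15.6% of all genes tested called lower.

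In all 8 genes the 3 libraries at 180 min lay below the 3 at 0 min, an arrangement that 30.8% of all genes tested shared, while 32.7% had all 3 libraries at 180 min above. The highest library at 180 min reached 78.8% to 87.1% of the lowest library at 0 min. Raw counts of the subunits lay between 4206 and 9865 per library, for which counting alone gives a coefficient of variation of at most 1.54%. The spread among libraries of a group was larger, 2.81% to 10.2% at 0 min and 2.54% to 8.35% at 180 min. Within a group the subunits often shared their lowest library: replicate 3 at 0 min for 6 of 8 subunits, and replicate 1 at 180 min for 7 of 8. Outside the family ACT1, SSB1 and HSP60 had the same lowest libraries, and CDC20, PFD1, GIM4, PAC10 and CIN4 did not. These genes were picked as examples. The share over all genes was not computed. Leaving out any 1 library kept all 8 subunits called lower, with the fold change of CCT7 between -0.31 and -0.27.

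Summed over the 8 genes, the level went from 2025 ± 117 CPM at 0 min to 1506 ± 64.3 CPM at 180 min (SD, n = 3), a change of -0.43 on the log2 scale. Of all counts in a library, the subunits took 0.185 ± 0.00805% (SD, n = 3) before and 0.164 ± 0.00582% (SD, n = 3) at the later time. This share is the sum under library sizes only, without a composition factor, and its groups did not overlap. On the log2 scale it changed by -0.17.

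Beside the common fall, the share of any subunit in the family sum per kb moved by at most 1.37 percentage points. Equal transcript levels would give each of the 8 genes 12.5% of the sum of counts per kb of coding length. Each ring holds 1 copy of every subunit, but protein was not measured. The shares ran from 8.89% to 15.99% over all genes and libraries. Per kb, CCT4 was highest at 0 min (193 ± 13.4 CPM per kb), followed by CCT5 (185 ± 11.5), CCT7 (169 ± 4.75), CCT3 (155 ± 13.9), CCT6 (153 ± 7.32), CCT2 (148 ± 15.2), CCT8 (118 ± 8.50) and TCP1 (114 ± 4.35; SD, n = 3). Neighbours in this order differed by less than the sum of their SDs, except CCT2 and CCT8, and by a small margin CCT5 and CCT7. The highest level was 1.69 times the lowest at 0 min and 1.54 times at 180 min. At 0 min the 8 genes stood above 73.3% to 83.0% of 5715 coding genes in level per kb, and at 180 min above 68.3% to 78.3%.

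Shares of 3 subunits did not overlap between the groups. The shares are parts of the same sum, so they do not move independently, and no reference rate for such shares was computed. CCT5 held 15.0 ± 0.360% of the sum per kb at 0 min and 13.9 ± 0.619% at 180 min (SD, n = 3). CCT7 went the other way, from 13.7 ± 0.650% to 15.1 ± 0.273%, which was the largest change of the 8 at 1.37 percentage points. The share of CCT8 went from 9.51 ± 0.187% to 10.0 ± 0.0783%. The log2 ratio of CCT5 to CCT7 counts was 0.25, 0.16 and 0.07 at 0 min and -0.08, -0.14 and -0.02 at 180 min, so the order of these subunits in raw counts turned over in every library. The pair was chosen as the largest and the smallest fall, so the ratio is a description and was not tested.

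**Figure D2:**
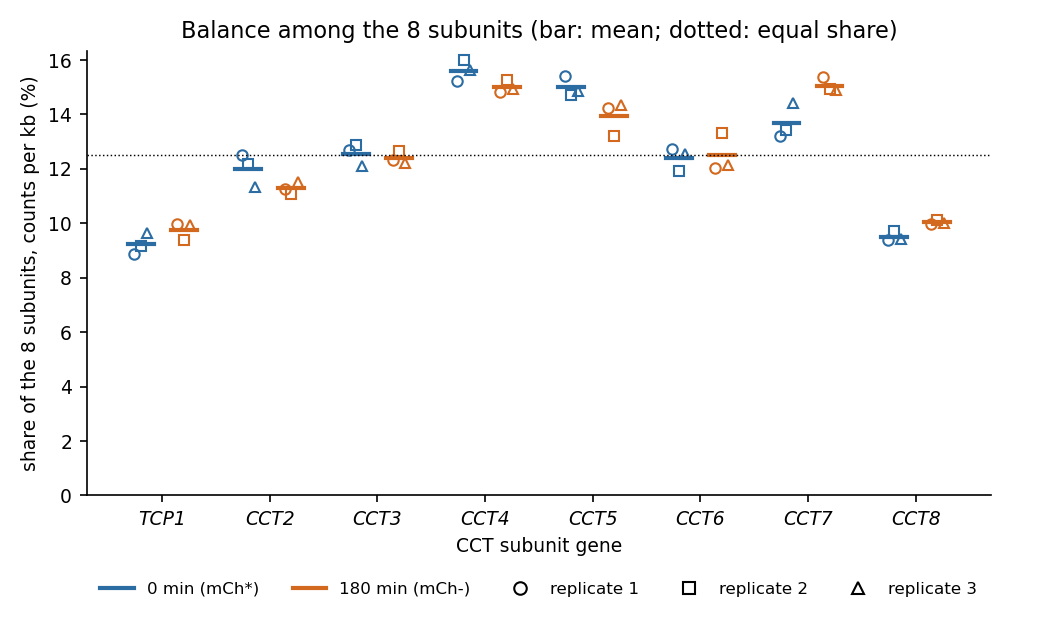
Share of each subunit gene in the sum of counts per kb over the 8 genes (y axis, percent), by gene (x axis), with libraries at 0 min in blue and at 180 min in orange, bars for means and a dotted line at the equal share of 12.5%. CCT5 (15.0% to 13.9%) and CCT7 (13.7% to 15.1%) are the subunits whose shares moved by over 1 percentage point.

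The cofactors that bring clients to the chaperonin were lower as well. Of the 6 prefoldin genes all 6 fell, with a median log2 fold change of -0.85, against 28.2% called lower among all genes. With library sizes only 5 of 6 were called lower, against 15.6% of all genes tested. GIM4 (YEL003W), prefoldin subunit 2, was the most abundant, with 1125, 863 and 1021 CPM at 0 min and 562, 408 and 425 CPM at 180 min. Its log2 fold change was -1.11 ± 0.12 (SE). PFD1 (-0.99), GIM3 (-0.98), YKE2 (-0.72) and PAC10 (-0.60) also fell, while the fall of GIM5 (-0.29 ± 0.08 SE) was as small as that of CCT7 and lost its call under library sizes (-0.04).

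PLP2, a phosducin-like protein that is essential in yeast, fell from 125 ± 9.36 to 92.2 ± 4.64 CPM (SD, n = 3), a log2 fold change of -0.44.

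The client transcripts varied in direction. Calls split among the 7 client genes into 3 lower, 1 higher and 3 neither, around a median of -0.11, where 28.2% of all genes tested were called lower and 29.5% higher. ACT1, the only actin gene, had 1315, 1420 and 1207 CPM at 0 min and 1198, 1242 and 1344 CPM at 180 min. Its groups overlapped and it was not called (-0.06 ± 0.09 SE, adjusted p = 0.604 in edgeR). With library sizes only, which called 2996 of 6220 genes higher, ACT1 was called higher (0.20).

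Of the 3 tubulin genes 2 were called lower. TUB2, beta-tubulin, went from 325 ± 11.7 to 274 ± 22.5 CPM (SD, n = 3; log2 fold change -0.24, adjusted p = 0.0210 in edgeR). TUB3, the minor alpha-tubulin, had -0.19 (adjusted p = 0.0470 in edgeR), and TUB1, the major one, was not called at -0.11. Both calls were lost in some alternatives. That of TUB2 went when 0 min replicate 2 (edgeR adjusted p = 0.0864), 180 min replicate 1 (0.0862) or 180 min replicate 2 (0.0794) was left out. That of TUB3 went with 0 min replicate 1 (0.188) or 2 (0.0728), or 180 min replicate 1 (0.0630), 2 (0.158) or 3 (0.0510) left out, and also with no filter on low counts (0.0579) or with the replicate block (0.0740). With library sizes only TUB2 (0.01) and TUB3 (0.06) were above 0 and not called. TUB1 and TUB3 are close paralogs, so the split of their counts is uncertain.

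Of the WD40 clients, CDC20, whose product activates the APC/C ubiquitin ligase in mitosis, fell from 39.4 ± 2.57 to 22.6 ± 1.57 CPM (SD, n = 3; log2 fold change -0.80 ± 0.10 SE). CDH1, the other activator, was not called (-0.11). CDC55, a regulatory subunit of phosphatase 2A, rose from 126 ± 3.55 to 156 ± 17.9 CPM (SD, n = 3), a log2 fold change of 0.31.

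Ratios within a library need no scaling factor. Per kb, the mean of the 8 subunits was 0.134, 0.129 and 0.135 of the ACT1 level at 0 min and 0.103, 0.106 and 0.0994 of it at 180 min. The groups did not overlap, and the ratio changed by -0.37 on the log2 scale. Each of the 8 subunits on its own was lower relative to ACT1 in all libraries at 180 min, from -0.48 for CCT5 to -0.23 for CCT7. The share of all genes separated in this way relative to ACT1 was not computed. By CPM, 30.8% of all genes tested had all 3 libraries at 180 min below the 3 at 0 min. Relative to the mean of TUB1, TUB2 and TUB3, the subunits went from 0.737 ± 0.0192 to 0.623 ± 0.0192 (SD, n = 3). A ratio shows unequal change of both sides and not which side moved.

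Tubulin is folded further after CCT by 5 cofactors, with the GTPase-like Cin4 beside them. Among these 6 genes 2 fell and 4 gave no call, around a median of -0.07, a share of falls near the 28.2% over all genes tested. CIN4 fell by 0.71 on the log2 scale. RBL2, which binds beta-tubulin, was called lower at -0.26, a call that went when 0 min replicate 1 (edgeR adjusted p = 0.160), 180 min replicate 1 (0.0732) or 180 min replicate 3 (0.0591) was left out, and under library sizes (0.968). CIN1 (0.00), CIN2 (0.11), ALF1 (-0.14) and PAC2 (0.32) were not called. Leaving out replicate 3 of 0 min (0.49) or of 180 min (0.41) made PAC2 called higher. With library sizes only CIN1, CIN2 and PAC2 were called higher, under a scaling that called 2996 of all 6220 genes tested higher.

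**Figure D3:**
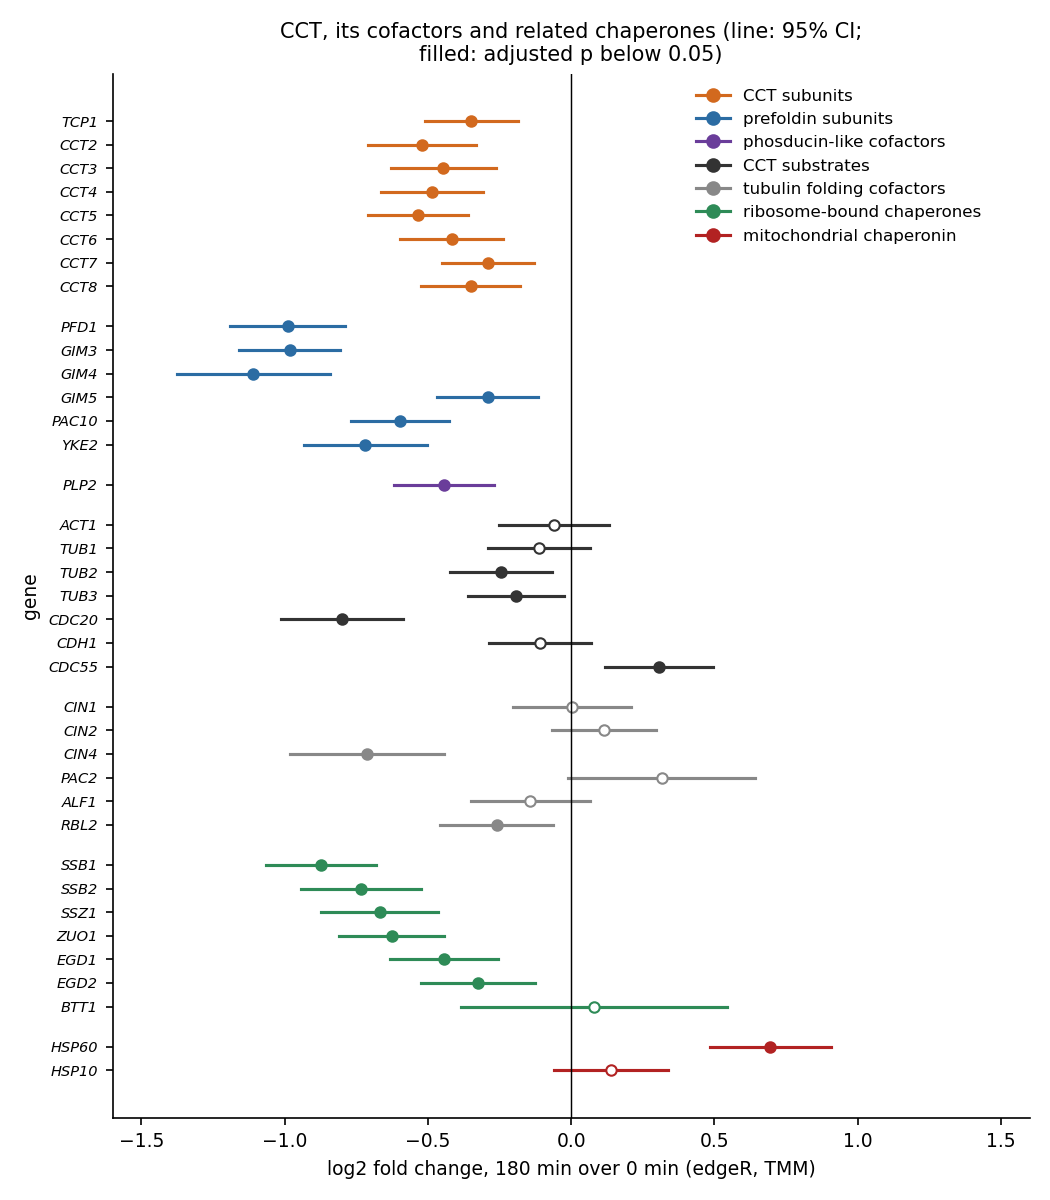
Log2 fold change of 180 min over 0 min (x axis, edgeR with TMM) with its 95% confidence interval for each gene (y axis), coloured by gene list, with filled points for adjusted p below 0.05. The 8 CCT subunits (-0.53 to -0.29) and 6 prefoldin subunits (-1.11 to -0.29) are all filled and left of 0, whereas HSP60 (0.69) is to the right. With library sizes only 3 CCT and 5 prefoldin genes keep their call, against 15.6% of all genes tested called lower.

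Chaperones that act earlier, on chains still on the ribosome, fell with CCT. Of 7 genes 6 fell and 1, BTT1 (0.08, 6.82 ± 1.49 CPM at 0 min), was not called, with a median of -0.63. Among all genes tested 28.2% were called lower. With library sizes only 4 of the 7 were called lower, around a median of -0.37, against 15.6% of all genes tested. SSB1 (-0.87), SSB2 (-0.73), SSZ1 (-0.67) and ZUO1 (-0.63), the Hsp70 and Hsp40 proteins of the ribosome exit, had larger falls than any CCT subunit. The nascent polypeptide-associated complex genes EGD1 (-0.44) and EGD2 (-0.33) lay within the CCT range, and neither was called with library sizes only. SSB1 and SSB2 are near-identical, so the split of their counts is uncertain. Relative to SSB1, SSB2, SSZ1 and ZUO1, per kb, the CCT level was higher at 180 min, at 0.225 ± 0.00518 against 0.281 ± 0.0118 (SD, n = 3). Relative to prefoldin it was also higher, at 0.196 ± 0.0289 against 0.291 ± 0.0426, a ratio in which GIM4 takes the largest part.

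The mitochondrial chaperonin, the bacterial-type relative of CCT, went the other way. HSP60 had 256, 260.1 and 204 CPM at 0 min and 364, 392 and 409 CPM at 180 min, a log2 fold change of 0.69 ± 0.10 (SE). Its co-chaperonin HSP10 did not pass the test (0.14) but did under library sizes (0.39), where 2996 of 6220 genes were called higher. The mean of the 8 CCT subunits per kb was 1.11 ± 0.0923 times the HSP60 level at 0 min and 0.508 ± 0.00960 times at 180 min (SD, n = 3), and no libraries of the groups overlapped.

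Of 20 heat-inducible chaperone and co-chaperone genes of the cytosol and mitochondria 14 rose, 2 fell and 4 gave no call, around a median of 0.60, against 29.5% called higher among all genes. HSP78 (2.22), HSP26 (2.06), SSE2 (1.96) and HSP82 (1.78) had the smallest adjusted p among the rises. SSE1 (-0.43) and YDJ1 (-0.31), an Hsp110 and an Hsp40, had falls of the size seen in CCT and were not called with library sizes only. Relative to HSP82 the mean CCT level per kb went from 1.53 ± 0.162 to 0.331 ± 0.0193 (SD, n = 3), where HSP82 has a near-identical copy, HSC82, and the split of their counts is uncertain.

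All 29 listed ribosome assembly genes were called lower, with a median of -1.05, against 28.2% called lower among all genes tested. The list is a part of its class and was chosen with earlier results of these data known. The fall of UTP10 (-0.52), named as the smallest of the list after its value was seen, lay at the size of the largest falls in CCT. DBP2 (-2.16), ENP2 (-1.54), RPF2 (-1.36) and RRS1 (-1.43) had the smallest adjusted p. The mean CCT level per kb was 0.792 ± 0.0423 of the mean of these genes at 0 min and 1.32 ± 0.0116 times it at 180 min (SD, n = 3).

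**Figure D4:**
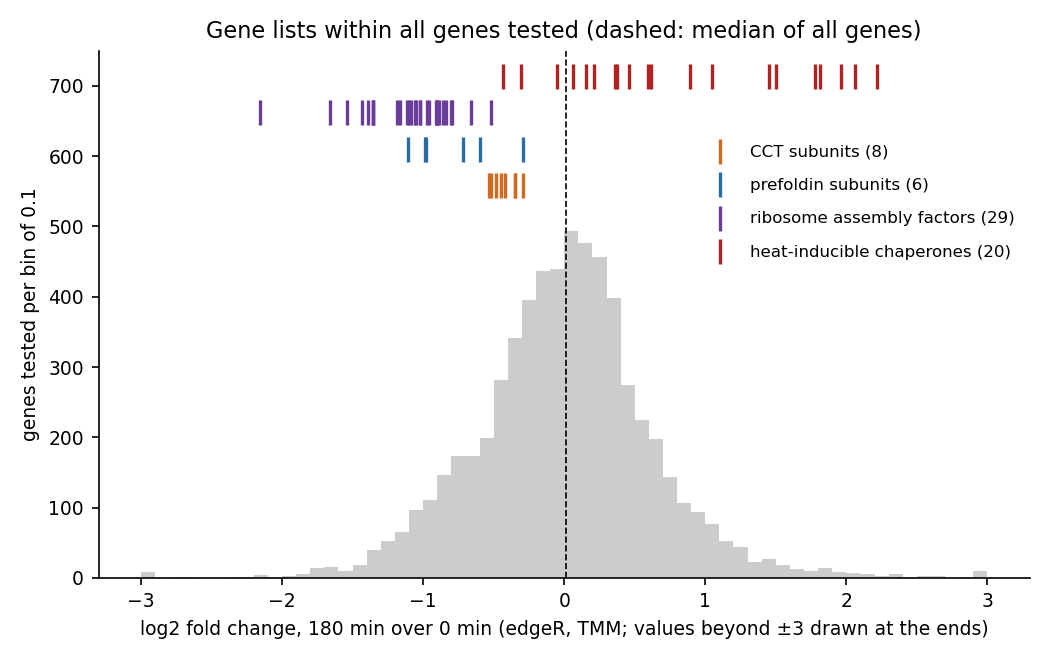
Histogram of the log2 fold change of 180 min over 0 min (x axis, edgeR with TMM) over 6220 genes tested (y axis, genes per bin of 0.1), with the genes of 4 lists as ticks above it and the median of all genes as a dashed line. The 8 CCT subunits form a narrow group between -0.53 and -0.29, between the median of all genes (0.02) and most ribosome assembly genes (median -1.05). With library sizes only the median of all genes is 0.27, and the CCT genes keep their place below it because scaling shifts all genes nearly alike.

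Between 17.2% and 29.2% of all genes tested had a lower fold change than a given CCT subunit. Over the 6 libraries, the mean centred log2 CPM profile of the 8 subunits had a Pearson r of at least 0.90 with 1158 other genes, among 5735 genes that averaged 50 counts or more. The 8 subunits themselves had r of 0.97 to 0.996 with this profile, to which each contributes. The non-members most like it, over 6 libraries, were YPL199C, FSF1, TIF34, VID24, RPL3, TAH18, ADE1 and TEF4, with r of 0.997 to 0.999. Their log2 fold changes ranged from -0.79 for FSF1 to -0.43 for TAH18. TIF34 encodes a subunit of translation initiation factor 3, RPL3 a large-subunit ribosomal protein, TEF4 a subunit of translation elongation factor 1B and ADE1 an enzyme of purine synthesis. YPL199C, FSF1, VID24 and TAH18 are not described here, and a function common to the 8 genes was not tested.

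**Figure D5:**
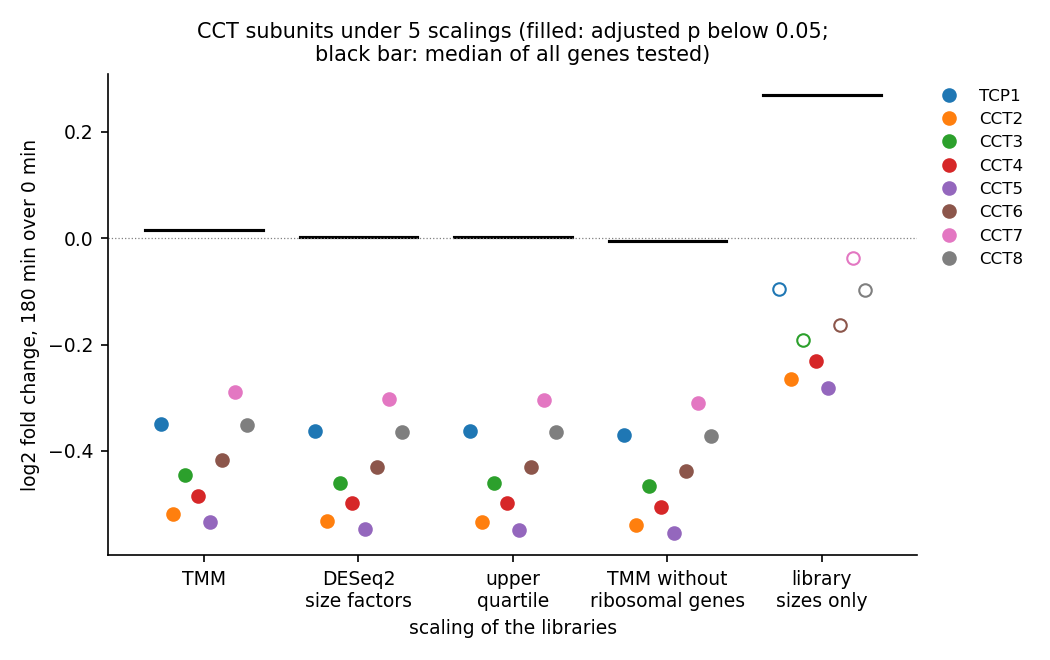
Log2 fold change of 180 min over 0 min (y axis) of each CCT subunit, in colour, under 5 scalings of the libraries (x axis), with filled points for adjusted p below 0.05 and black bars for the median of all genes tested. Under 4 scalings all 8 subunits are called lower. With library sizes only the points move up together with the median of all genes (0.27), and CCT2, CCT4 and CCT5 remain filled. Under that scaling 15.6% of all genes tested are called lower.

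The libraries held 25987900 to 34032212 counts each. Genes specific to a cells were present, with STE2, the alpha-factor receptor, at 561 to 649 CPM without TMM factors, while MFALPHA1 and MFALPHA2 reached at most 0.573 and 0.616 and STE3 7.50. No annotated gene overlaps a subunit gene. Of the identifiers numbered between a subunit and its annotated neighbours but absent from the annotation, YDR187C, YIL141W, YJL015C and YJL009W had at most 72 counts in any library.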

How the data were processed

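RNA was extracted from snap-frozen cells, DNase-treated and made into stranded polyA-selected libraries, per the labels' protocols. The authors deposited raw counts, whole numbers of reads per gene and not normalized, with 1 column per library. HTSeq 0.6.1p1, STAR 2.5.3a, cutadapt 1.10 and bcl2fastq 2.20.0.422 are named in the submitters' processing notes, as are builds sacCer3 and R64. Neither the strand setting nor the handling of reads with several positions is given in the sources used here. Groups and replicate numbers came from the sample titles. Names and positions came from RefSeq R64, which matched 6047 identifiers by locus tag and 41 by symbol.

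The test was the two-sided quasi-likelihood F test of edgeR 4.0.16 (R 4.3.3) for the later against the earlier time, with TMM factors, the default filter (907 of 7127 genes removed) and Benjamini-Hochberg adjustment over 6220 genes, called below 0.05. The SE came from the F statistic. CPM are TMM-scaled, and level comparisons between genes are per kb of coding length. The p-values rest on the spread between libraries of a group. The fit was checked on simulated counts. It recovered 26% of 1.2-fold, 68.8% of 1.5-fold, 91.8% of 2-fold and 100% of 4-fold changes. Of its 153 calls there, 12 were false.

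The members and gene lists were chosen with earlier results of these data known. Named were the 8 subunits, every member of lists of at most 8 genes, up to 4 called members per direction of longer lists by adjusted p, and the 8 genes most like the family profile. 1 gene that this rule names is not reported here. Alternatives were other scalings and filters, DESeq2 1.42.0, limma-voom in limma 3.58.1, the replicate block, nuclear protein-coding genes, a threshold of 0.01, removal of a gene length trend, and each library left out. Drawing used matplotlib 3.10.9.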

Additional observations from a re-analysis of the deposited data

How the results depend on the processing

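All 8 subunits were called lower under 17 of the 18 alternatives run on the calls, among them DESeq2, limma-voom, other filters, a threshold of 0.01 and each library left out. The exception was library sizes only, with 3 subunits called lower, 2996 genes called higher and 969 lower in place of 1833 and 1754 (75.6% of calls higher in place of 51.1%), and a summed CCT level change of -0.17. With the gene length trend removed the subunits lay between -0.58 and -0.33. Leaving out 1 library gave 3143 to 3477 genes called in all. With library sizes only the sign changed for ACT1 (0.195), TUB1 (0.143), TUB2 (0.00839), TUB3 (0.0601), CDH1 (0.145) and ALF1 (0.111). CIN1 was at -0.0111 with DESeq2 size factors, -0.0116 with upper-quartile factors, -0.0186 without ribosomal protein genes, -0.00482 with the 10 CPM filter, -0.0106 in DESeq2, -0.00791 over nuclear protein-coding genes and -0.203 with the length trend removed. Without single libraries, ACT1 ranged from -0.117 to 0.000311, CIN1 from -0.0158 to 0.0231 and BTT1 from -0.0897 to 0.211. Why these values moved was not tested.

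The labels give no model, so the unpaired fit was the main one. Same-numbered libraries did not deviate together (r of -0.02, -0.03 and -0.18 over 6220 genes), but 3 libraries per group are too few to exclude pairs. With the replicate block the calls numbered 3390 (1727 higher and 1663 lower), all 8 subunits were called lower with a largest adjusted p of 0.0116 in edgeR, and TUB3 was no longer called (0.0740). Each library at 0 min correlated best with a library of another number at 180 min.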
